A study of Mus musculus with 7 samples.

Results

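The genes described here are Nfkbiz and 9 other genes of the NF-kB system that restrain the pathway, form its transcription factors or are switched on by it. They are Nfkbia, Nfkb1, Nfkb2, Relb, Rela, Tnfaip3, Bcl3, Birc3 and Icam1. Members were the probe sets that the platform annotation assigns to 1 of these 10 genes and to no other gene. This gave 18 of the 45037 probe sets tested, for 9 of the 10 genes (of 18193 genes with a probe set of their own), and Nfkb1 is not analysed here. Expression was measured on Affymetrix mouse arrays in the terminal ileum of male C57BL6J mice aged 8 weeks, 1 array for each mouse. The penicillin group held 4 mice that had been given low-dose penicillin, at 6.7 mg/L, since birth. The control group held 3 mice without antibiotic. All mice were weaned onto normal chow at 4 weeks and ate a diet with 45% of its kcal from fat from 6 weeks on. The growth text of the labels names livers, but the tissue label is terminal ileum, and Fabp6, the bile acid binding protein of ileal enterocytes, had a log2 level between 14.28 and 14.64 on every array. Slc10a2, a second ileal gene, read 10.99, 10.71 and 9.91 in control mice and 11.25 to 11.44 in penicillin mice, without overlap. The reason for this difference was not tested. The labels give neither litter nor cage, so a difference between litters or cages cannot be told apart from penicillin.

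NF-kB is a family of transcription factors that sits in the cytoplasm of resting cells, held there by inhibitors of the IkB family. Signals from microbes or from cytokines such as TNF, IL-1 and IL-17 lead to the destruction of IkB-alpha, and the freed Rel proteins move to the nucleus. Many of the genes they switch on are brakes on the same pathway, and these are its feedback genes. In the gut, microbial products and cytokines of immune cells feed this pathway in epithelial cells as well as in immune cells. IkB-zeta, the product of Nfkbiz, is an unusual member of the IkB family. It is nuclear, is made in response to Toll-like receptor, IL-1 and IL-17 signals, and helps NF-kB to activate a secondary set of genes.

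Rel proteins bind DNA at kB motifs, and the gene starts of 4 feedback genes of the list are shown because such a motif stands in each of them. Each line gives 300 bases of the mouse reference, from 250 bases before the gene start to 50 after it, 5′ to 3′ on the gene's own strand, with letters that match the kB consensus on either strand in capitals. The consensus searched was GGG, then A or G, any base, A or T, C or T, C or T, and CC. The sequences come from RefSeq on GRCm38.p6. They lie at chr12:55492598-55492897 on the minus strand for Nfkbia, at chr7:19822706-19823005 on the minus strand for Bcl3, at chr19:46304487-46304786 on the plus strand for Nfkb2 and at chr10:19015361-19015660 on the minus strand for Tnfaip3.
Nfkbia: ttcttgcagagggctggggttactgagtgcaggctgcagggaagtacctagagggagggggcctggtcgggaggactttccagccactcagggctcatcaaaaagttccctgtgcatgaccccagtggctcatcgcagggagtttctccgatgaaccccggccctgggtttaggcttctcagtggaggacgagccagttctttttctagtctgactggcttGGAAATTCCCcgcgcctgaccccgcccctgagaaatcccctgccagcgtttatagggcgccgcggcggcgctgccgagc
Bcl3: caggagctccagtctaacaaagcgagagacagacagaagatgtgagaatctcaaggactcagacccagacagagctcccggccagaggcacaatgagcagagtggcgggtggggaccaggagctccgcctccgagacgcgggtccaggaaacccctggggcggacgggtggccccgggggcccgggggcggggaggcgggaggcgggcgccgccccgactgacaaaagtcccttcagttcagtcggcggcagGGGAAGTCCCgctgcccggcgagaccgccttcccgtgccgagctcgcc
Nfkb2: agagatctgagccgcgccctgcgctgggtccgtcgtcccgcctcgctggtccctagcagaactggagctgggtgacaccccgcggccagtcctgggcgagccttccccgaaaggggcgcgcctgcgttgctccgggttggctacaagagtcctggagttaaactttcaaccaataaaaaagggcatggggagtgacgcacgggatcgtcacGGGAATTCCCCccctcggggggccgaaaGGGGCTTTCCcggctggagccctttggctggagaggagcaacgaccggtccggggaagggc
Tnfaip3: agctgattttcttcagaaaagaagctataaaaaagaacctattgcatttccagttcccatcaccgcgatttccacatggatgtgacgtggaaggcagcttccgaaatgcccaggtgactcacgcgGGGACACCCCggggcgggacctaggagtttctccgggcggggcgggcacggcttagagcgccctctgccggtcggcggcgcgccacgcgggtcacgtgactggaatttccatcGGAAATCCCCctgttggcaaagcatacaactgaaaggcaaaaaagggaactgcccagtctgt
In Nfkbia the match reads GGGAATTTCC on the opposite strand, at positions 222 to 231 of the window. In Bcl3 it reads GGGACTTCCC on the opposite strand, at positions 253 to 262, just past the gene start. The Nfkb2 window holds overlapping matches at 212 to 222 and a separate one, GGGGCTTTCC, at 240 to 249. The Tnfaip3 window holds GGGACACCCC at 126 to 135 and, on the opposite strand, GGGGATTTCC at 239 to 248. The RefSeq table had 10 such windows for 7 of the member genes, and 6 windows of 4 genes held the motif. Nfkb2 had 3 windows, all with the motif and overlapping in part, and Tnfaip3 had a second window without it. The single windows of Rela, Birc3 and Icam1 held no match to this consensus, and sites that depart from it were not searched. Over all 32851 windows of the table, 4.51% held the motif. A match describes letters only, and none of the 4 genes shown was called in the comparison of the groups.

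Nfkbiz had the largest difference of the members, lower in penicillin mice in its 2 brighter probe sets. Its brightest probe set, 1417483_at, read log2 10.44, 10.10 and 10.17 in the control mice and 9.26, 9.50, 9.29 and 9.14 in the penicillin mice. The groups did not overlap, and the lowest control mouse lay above the highest penicillin mouse. The means were 10.24 ± 0.177 (SD, n = 3) and 9.30 ± 0.151 (SD, n = 4), a difference of -0.94 ± 0.11 (SE), or 1.92-fold lower. With each gene represented by its brightest probe set, Nfkbiz passed in limma (adjusted p = 0.0443 over 13644 genes, Benjamini-Hochberg, threshold 0.05) and ranked 10th by p. It was the only one of the 9 member genes to do so, and 0.088% of all genes tested were called lower. With every probe set tested by itself, 1417483_at had an adjusted p of 0.0503 in limma over 45037 probe sets, just short of the threshold. At that scale 0 of the 18 member probe sets were called, against 0.0377% of all probe sets, and 3 of the 18 had an unadjusted p under 0.05.

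A second probe set of Nfkbiz, 1448728_a_at, designed on the same transcript record, showed the same pattern. It read 8.86, 8.48 and 8.32 in control mice and 7.72, 7.79, 7.56 and 7.32 in penicillin mice, again without overlap. The difference was -0.96 ± 0.15 (SE, 1.94-fold), with an adjusted p of 0.14 in limma over all probe sets. The third, 1457404_at, designed on a different record, read 7.45, 7.44 and 7.37 in control mice, and 7.10 in penicillin replicate 1 and 7.36 in each of the other 3 penicillin mice. These groups did not overlap either, but the gap between them was smaller than the SD of the control mice (0.0411), and the difference was -0.13 ± 0.078 (SE, adjusted p = 0.64 in limma). Its 95% interval, from -0.31 to 0.052, did not reach the values of the other probe sets. The 3 probe sets of Nfkbiz were the only members without overlap, all with penicillin below. Among all probe sets 3.68% had penicillin wholly below control. Probe sets of 1 gene measure the same RNA samples and are not independent.

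The Nfkbiz call depended on single mice, while the size of the difference moved little. In limma over genes the adjusted p was 0.166 without control replicate 1, 0.116 without control replicate 2 and 0.0667 without control replicate 3. It was 0.184, 0.134 and 0.161 without penicillin replicates 1, 3 and 4, and 0.0370 without penicillin replicate 2. Over these fits the difference lay between -1.01 and -0.84. With the mean of its 3 probe sets Nfkbiz differed by -0.67 and was not called (adjusted p = 0.0726).

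**Figure D1:**
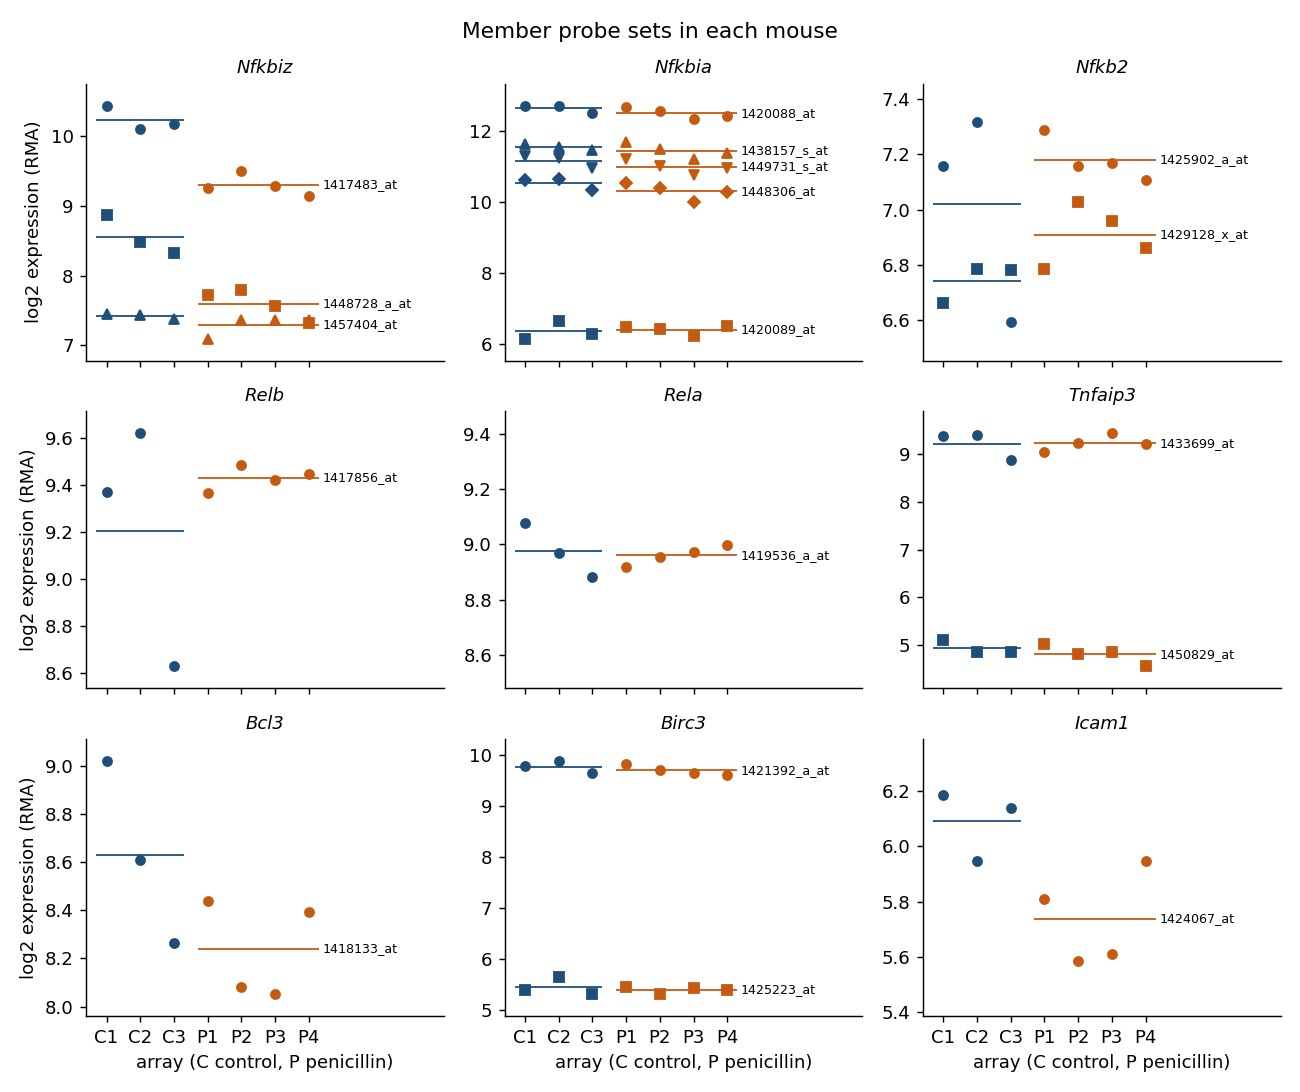
Log2 expression (RMA, vertical axes, each on its own range) of the 18 member probe sets in each mouse, with control arrays C1 to C3 in blue and penicillin arrays P1 to P4 in orange; symbols mark probe sets and horizontal lines the group means. The 3 probe sets of Nfkbiz are the only ones whose groups do not overlap, while Nfkb2 1425902_a_at and Relb have their lowest value in control replicate 3.

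Nfkbia encodes IkB-alpha, the classical inhibitor that NF-kB switches on to end its own activity. Of its 5 probe sets the brightest, 1420088_at, read 12.71, 12.72 and 12.51 in control mice and 12.69, 12.57, 12.33 and 12.44 in penicillin mice. The groups overlapped, with penicillin replicates 1 and 2 above control replicate 3. The difference was -0.14 ± 0.097 (SE, 95% interval -0.36 to 0.087, adjusted p = 0.667 in limma). The probe sets 1438157_s_at, 1448306_at and 1449731_s_at differed by -0.12, -0.24 and -0.18, and 1420089_at, the dimmest of the gene, by 0.040. The suffix _s_at marks probe sets whose probes may match more than 1 transcript. In all except 1420089_at, penicillin replicate 3 was the lowest of the 7 mice. None of the 5 intervals reached below -0.53, while the point estimates of the 2 brighter Nfkbiz probe sets were -0.94 and -0.96. The difference between Nfkbiz and Nfkbia was not itself tested.

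Bcl3 is, like IkB-zeta, a nuclear IkB protein, and it works with p50 and p52 homodimers. Its probe set 1418133_at read 9.02, 8.61 and 8.26 in control mice and 8.44, 8.08, 8.05 and 8.39 in penicillin mice. Control replicate 1 was the highest and control replicate 3 lay inside the penicillin range, so that the groups overlapped. The difference of -0.39 ± 0.18 (SE) had an interval from -0.80 to 0.019 and an adjusted p of 0.582 in limma. It was -0.20 without control replicate 1 and -0.57 without control replicate 3, not called in either.

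Rela encodes p65, the main activating subunit of the classical pathway. It read 9.08, 8.97 and 8.88 in control mice and 8.92, 8.95, 8.97 and 8.999 in penicillin mice, all penicillin values inside the control range. The difference was -0.015 ± 0.061 (SE), with a narrow interval from -0.16 to 0.12. Relb and Nfkb2 encode the subunits of the alternative pathway, Nfkb2 as the p100 precursor that is cut to p52. Relb read 9.37, 9.62 and 8.63 in control mice and 9.37, 9.49, 9.42 and 9.45 in penicillin mice. The 4 penicillin mice lay close together, and control replicate 3 lay below all other mice. The difference of 0.22 ± 0.20 (SE, adjusted p = 0.73 in limma) became -0.065 without control replicate 3. Nfkb2 1425902_a_at showed the same layout, at 7.16, 7.32 and 6.59 in control mice and between 7.11 and 7.29 in penicillin mice, and its difference of 0.16 became -0.056 without control replicate 3. The other Nfkb2 probe set, 1429128_x_at, did not have that layout. It read 6.66, 6.79 and 6.78 in control mice and 6.79, 7.03, 6.96 and 6.86 in penicillin mice, a difference of 0.17 ± 0.072 (SE, adjusted p = 0.57 in limma). The suffix _x_at marks probes that can also bind other transcripts.

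Tnfaip3 encodes A20, a ubiquitin-editing enzyme that shuts off signalling upstream of the IkB kinase. Its brighter probe set, 1433699_at, read 9.38, 9.39 and 8.89 in control mice and 9.05, 9.23, 9.44 and 9.20 in penicillin mice, a difference of 0.0094 ± 0.14 (SE, interval -0.31 to 0.33). Control replicate 3 was again the lowest mouse, and without it the difference was -0.16. The dim probe set 1450829_at, at the 42nd percentile of all probe sets, differed by -0.13 ± 0.12 (SE). Birc3 encodes cIAP2, a ubiquitin ligase of TNF receptor complexes and itself a target of NF-kB. Its probe sets 1421392_a_at and 1425223_at differed by -0.068 ± 0.078 and -0.055 ± 0.086 (SE), and in both the groups overlapped. The second lay near the median of all probe sets, at log2 5.42.

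Icam1 encodes an adhesion molecule of endothelium, epithelium and leukocytes and is a classical NF-kB target. It read 6.19, 5.95 and 6.14 in control mice and 5.81, 5.59, 5.61 and 5.95 in penicillin mice. The groups met at 1 value, since penicillin replicate 4 and control replicate 2 were equal. The difference of -0.35 ± 0.10 (SE, 1.28-fold lower, interval -0.59 to -0.11) had an unadjusted p of 0.00922 and an adjusted p of 0.453 in limma over all probe sets, and was not called. It was the member nearest to the threshold after the Nfkbiz probe sets 1417483_at and 1448728_a_at.

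**Figure D2:**
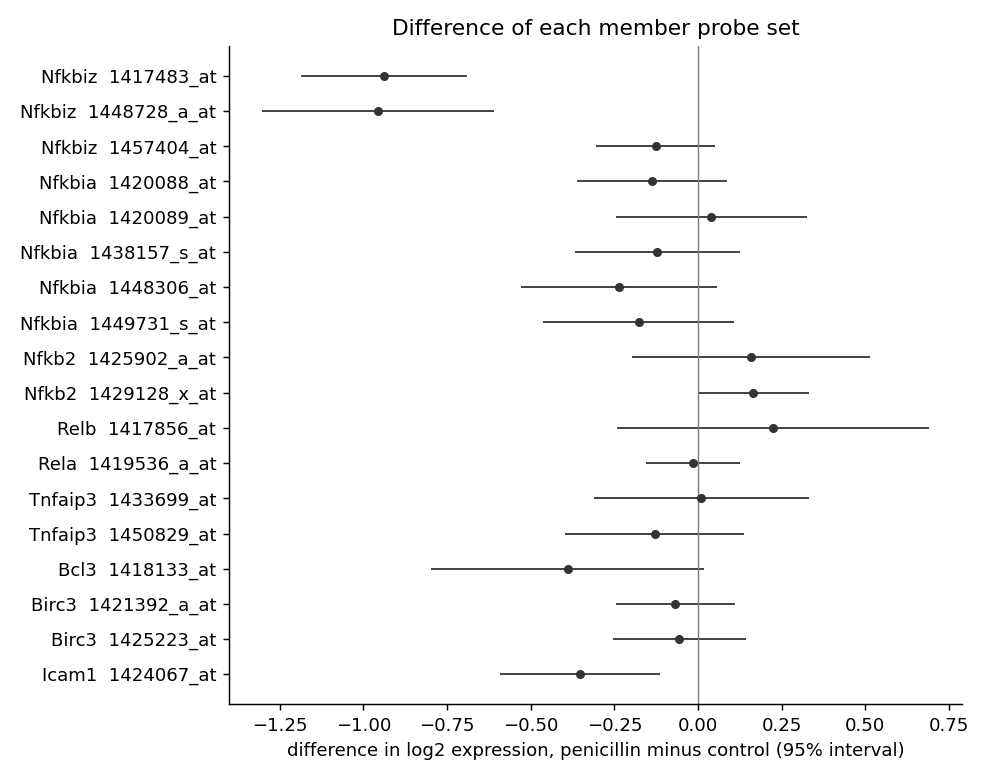
Difference in log2 expression, penicillin minus control (horizontal axis), of the 18 member probe sets, as points with 95% intervals of the limma fit, not adjusted for the number of probe sets. Nfkbiz 1417483_at and 1448728_a_at lie at -0.94 and -0.96, Icam1 at -0.35 is the only other one whose interval leaves out 0, and the rest lie between -0.39 and 0.22.

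Across the members, 13 of 18 probe sets had a lower mean in penicillin mice, with a median difference of -0.12, against 21982 of 45037 and a median of 0.0029 over all probe sets. Unadjusted p under 0.05 was reached by 3 members, all lower, where 4.43% of all probe sets reached it lower and 4.34% higher. By gene, 6 of the 9 members were lower, against 7467 of 13644 genes tested. Over the 9 genes the median difference was -0.068, against -0.014 over all genes tested. The members did not share 1 profile over the 7 mice. Control replicates 1 and 2 held the highest value in 15 of the 18 probe sets, and control replicate 3 in none. Control replicate 3 held the lowest value in 4 of them, namely Relb, Rela, Tnfaip3 1433699_at and Nfkb2 1425902_a_at. Penicillin replicate 3 held it in 5 and penicillin replicate 4 in 4, the 2 brighter Nfkbiz probe sets among these. Control replicate 3 stood apart on the first principal component of all genes, at -30.0 against -2.90 to 17.6 for the other mice. It was also highest in the colon markers Car1 and Aqp8. The colonocyte enzyme Car1 had a log2 level of 14.10 in that mouse, 10.82 in penicillin replicate 1 and 5.11 to 7.63 in the others. Aqp8 was at 8.27, against 3.86 to 4.29 in the other 6. The colon markers Hoxb13, Hoxd10 and Hoxd13 lay under the filter on low values and did not go 1 way. In control replicate 3 Hoxb13 (3.28) and Hoxd13 (4.30) were at their lowest and Hoxd10 (3.70) at its highest. The part of this in the values of Relb, Nfkb2 and Tnfaip3 was not tested.

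**Figure D3:**
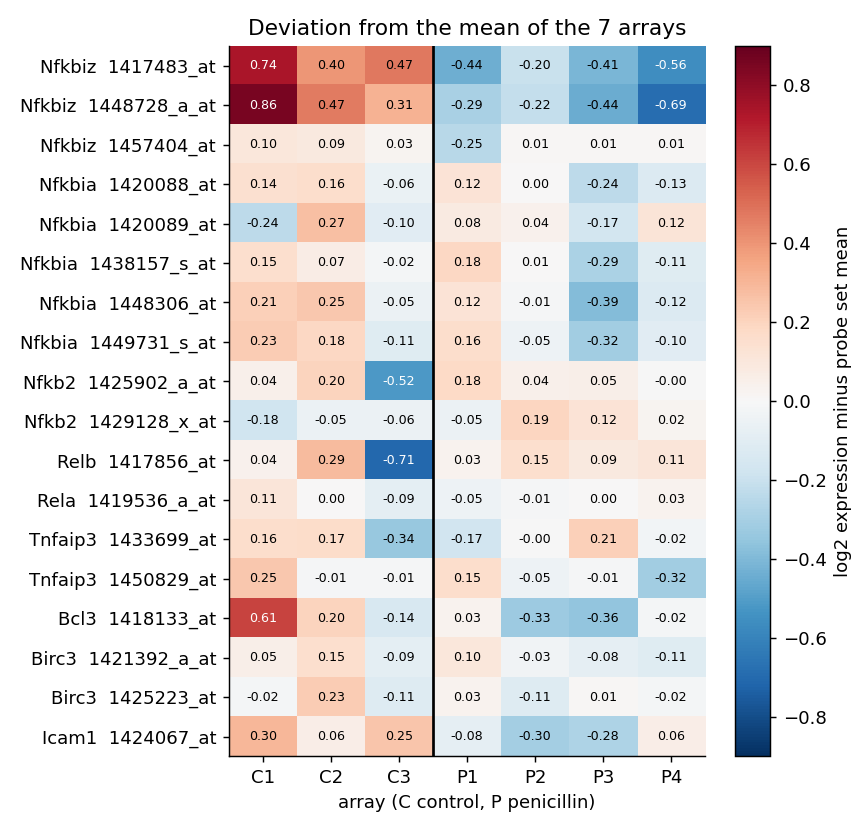
Deviation of each member probe set from its own mean over the 7 arrays (log2, colour and printed number), with control arrays C1 to C3 left of the black line and penicillin arrays P1 to P4 right of it. The 2 brighter Nfkbiz probe sets are above their mean in all 3 control mice and below it in all 4 penicillin mice, and control replicate 3 is at -0.71 for Relb and -0.52 for Nfkb2 1425902_a_at.

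The rest of the pathway was described by role. Among its ligands 6 of 10 listed genes passed the filter on low values, and 0 were called in limma (2 at an unadjusted p under 0.05, both lower). Over all genes tested, 6.35% had an unadjusted p under 0.05 and were lower and 4.37% higher. Of these 13644 genes, 825 had all penicillin mice below all control mice and 586 had all above. Ltb, a lymphotoxin chain of lymphocytes, differed by -0.34 ± 0.11 (SE), with all penicillin mice below all control mice. Tnfsf13b, the B cell factor BAFF, differed by -0.38 ± 0.13 (SE), with overlap, and by -0.13 with the mean of its probe sets. Il1b went the other way, at 0.17 ± 0.084 (SE), with all penicillin mice above all control mice, and was at 0.10 without penicillin replicate 3. Il17a, the cytokine that acts upstream of Nfkbiz in epithelium, lay under the filter.

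Of 17 receptors and adapters 15 were tested, and of 18 genes of the IkB kinase complex and its activators 15 were tested. No gene of either list was called in limma or reached an unadjusted p under 0.05. The medians were -0.020 and -0.017. Among the adapters Traf3ip2, which couples the IL-17 receptor to NF-kB, differed by -0.11 ± 0.051 (SE), Nod1, a sensor of bacterial peptidoglycan, by -0.26 ± 0.14 (SE) and Tirap by -0.18 ± 0.099 (SE). Without control replicate 3 Nod1 was at -0.11, and with array quality weights at -0.098. In the kinase group Rnf31, Ikbkb and Sharpin differed by -0.25, -0.089 and -0.073. Their values moved with single control mice, to -0.095, -0.048 and -0.025 without control replicate 2 and to -0.41, -0.16 and -0.13 without control replicate 3. With the mean of probe sets Ikbkb was at -0.014 and Sharpin at -0.045. Of the other Rel and IkB proteins all 5 were tested and 0 were called in limma (1 at an unadjusted p under 0.05, higher, against 4.37% of all genes). Rel differed by 0.25 ± 0.11 (SE), Nfkbie by -0.097 ± 0.060 (SE) and Nfkbid by -0.071 ± 0.059 (SE). Without control replicate 3, in which Rel was lowest at 4.61, Rel was at 0.12. Nfkbie was at -0.057 without penicillin replicate 1 and at -0.052 with the mean of probe sets, and Nfkbid was at -0.11 without penicillin replicate 2 and at -0.0025 with array quality weights.

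Among 14 tested genes of 15 listed as other brakes on NF-kB, 0 were called in limma, 4 had an unadjusted p under 0.05 and all 4 were lower. Over all genes tested, 6.35% reached that level and were lower and 4.37% higher. Zc3h12a encodes Regnase-1, an RNase that degrades inflammatory mRNAs, that of Nfkbiz among them. It read 7.45, 7.36 and 7.06 in control mice and 6.59, 6.64, 6.71 and 6.65 in penicillin mice, without overlap. The difference was -0.64 ± 0.095 (SE, 1.56-fold lower, adjusted p = 0.0862 in limma), so that it was not called. Without control replicate 3 it was -0.75 with an adjusted p of 0.0358, and with each of the other 6 mice left out the adjusted p lay between 0.175 and 0.279. With array quality weights it was -0.78 (adjusted p = 0.00283), and with the mean of its probe sets it was -0.33 (adjusted p = 0.149). N4bp1, an RNase that restrains NF-kB, differed by -0.25 ± 0.067 (SE) and Irak3, an inhibitor of the Toll-like receptor pathway, by -0.35 ± 0.13 (SE). N4bp1 was at -0.13 with the mean of probe sets, and Irak3 at -0.22 without control replicate 3 and at -0.12 with array quality weights. The median of the list was -0.059.

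Of 18 other NF-kB targets 14 were tested and 0 were called in limma (2 at an unadjusted p under 0.05, both lower, against 6.35% of all genes). Irf1, a transcription factor driven by interferon as well as NF-kB, differed by -0.51 ± 0.11 (SE), without overlap of the groups. Vcam1, an endothelial adhesion molecule, differed by -0.61 ± 0.17 (SE), with control replicate 2 as low as penicillin replicate 4, and by -0.29 with the mean of its probe sets. Cxcl1, a neutrophil chemokine, stood at 0.15 ± 0.095 (SE), at 0.074 without control replicate 1, at 0.036 with the mean of probe sets and at 0.30 with array quality weights. Of 12 genes known to need IkB-zeta in other settings only 3 passed the filter, so the list says little here. Ccl20, a chemokine of gut epithelium, differed by -0.44 ± 0.21 (SE), Lcn2 by -0.31 ± 0.25 (SE) and Csf3 by 0.12 ± 0.12 (SE), and none was called in limma or had an unadjusted p under 0.05. The Lcn2 value of control replicate 3 was 5.48, the other 6 mice lay between 4.30 and 4.57, and the difference was 0.038 with that mouse left out. Lcn2 and Csf3 were dim, near the filter level of 4.588. Their means were 4.79 and 4.64 in control mice and 4.48 and 4.76 in penicillin mice. Il1b, Rel, Nfkbid and Irak3 were dim too, with the means of both groups under the array medians of 5.43 to 5.45.

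**Figure D4:**
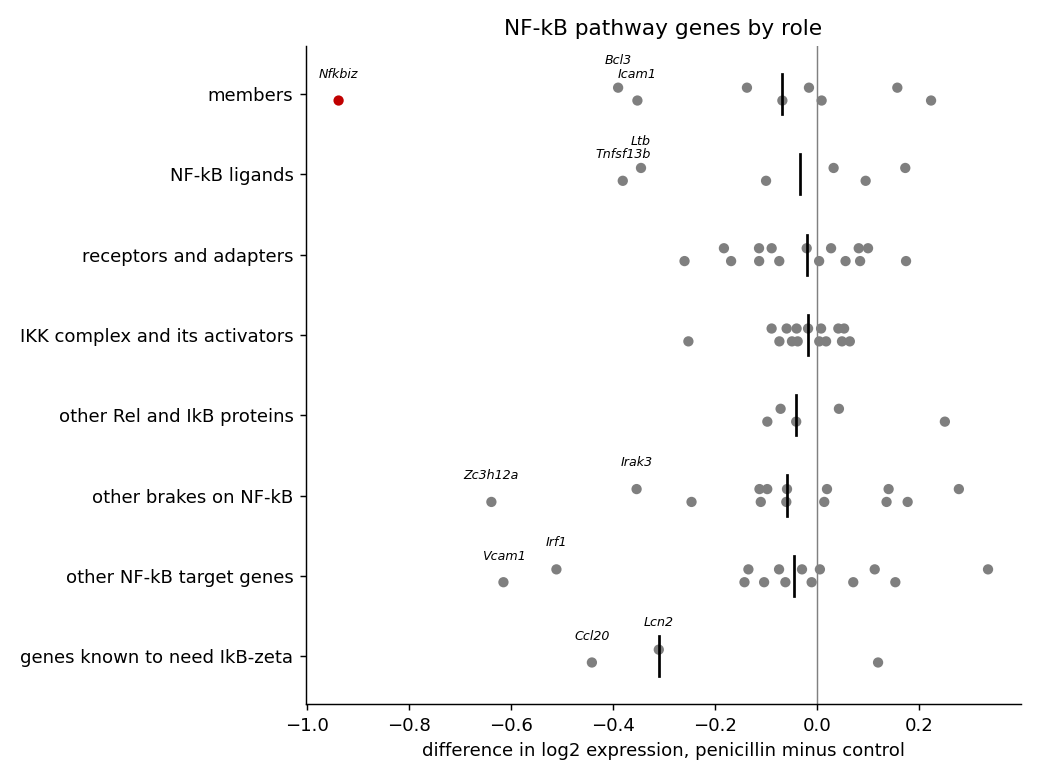
Difference in log2 expression, penicillin minus control (horizontal axis), of each tested gene by its role (rows), 1 probe set for each gene, with black bars at the row medians and red for a limma adjusted p under 0.05. Nfkbiz at -0.94 is the only red point, the list medians other than that of the 3 genes known to need IkB-zeta lie between -0.068 and -0.017, and labels mark members and described genes beyond 0.3.

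The genes whose values followed those of Nfkbiz 1417483_at most closely over the 7 mice, by Pearson correlation, were Il7, Kazn, Irf8, Elac2 and Psmb9, at r between 0.977 and 0.986. Because Nfkbiz separates the groups, a high r over all mice is open to any gene that separates them. After each group's own mean was removed, r lay between 0.718 and 0.837 for these 5 genes, which were chosen by the highest r. Il7, a cytokine made by epithelium and stroma for lymphocytes, differed by -0.45 ± 0.058 (SE, adjusted p = 0.0557 in limma). Irf8, a transcription factor of myeloid and B cells, differed by -0.64 ± 0.098 (SE, adjusted p = 0.0911 in limma). Psmb9, an immunoproteasome subunit, differed by -1.11 ± 0.14 (SE, adjusted p = 0.0557 in limma). Among the members the closest were Icam1 at r = 0.726 and Bcl3 at 0.637, while within groups Icam1 was at -0.238 and Bcl3 at 0.176. Relb and Nfkb2 were at -0.333 and -0.316 over all mice.

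In whole tissue, fewer cells of a type and less RNA in each cell cannot be told apart. The mean log2 level of 8 epithelial markers lay between 12.95 and 13.14 in control mice and between 13.06 and 13.09 in penicillin mice. Singly, 7 of them were higher in penicillin mice and 1, Elf3, was lower. Cdh1 (0.080) and Krt8 (0.043) had all penicillin mice above all control mice. Elf3 differed by -0.42 ± 0.064 (SE, adjusted p = 0.0896 in limma), with all penicillin mice below all control mice. For T cells, 7 of 8 markers on the array gave 5.81 to 5.98 in control mice and 5.43 to 5.68 in penicillin mice, and for B cells, 6 of 7 gave 4.50 to 4.53 and 4.19 to 4.42. These mean levels did not overlap between the groups, but the markers differed among themselves. Of the T cell markers 5 passed the filter, of which Cd3g differed by -1.29, Cd3d by -0.59 and Cd4 by -0.00094. Of the B cell markers 2 passed, Cd79b at -0.74 and Pax5 at 0.067, and the mean B cell level lay under the filter level of 4.588 in every mouse. None of these markers was called in limma. The mean level of the 8 macrophage and dendritic cell markers lay at 7.37 to 7.83 and 7.12 to 7.56, with overlap. Of these 7 were lower and Cd68 was higher, at 0.048, and none was called in limma. Csf1r (-0.34), Itgax (-0.30) and C1qa (-0.35) had all penicillin mice below all control mice, as had 825 of 13644 genes tested. For C1qa the lowest control mouse was at 9.20 and the highest penicillin mouse at 9.19. The mean level of the 7 endothelial markers lay at 6.51 to 6.86 and 6.27 to 6.57, also with overlap. Of the endothelial markers 6 were lower and Egfl7 was higher, at 0.032. Emcn, a sialomucin, had the largest difference, at -0.44 ± 0.086 (SE, adjusted p = 0.156 in limma), and only its groups did not overlap. The mean level of 7 fibroblast markers lay at 9.76 to 10.18 in control mice and at 9.52 to 10.18 in penicillin mice, with overlap. Neutrophil markers, 7 of 8 on the array, were near the bottom of the scale, at 3.92 to 4.05 and 3.94 to 4.08, and 1 of them passed the filter. The part of these cells in the difference of Nfkbiz, Ltb, Icam1 and Vcam1 was not tested.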

How the data were processed

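Total RNA was hybridised to 1 array for each of 3 control and 4 penicillin mice. The authors deposited log2 expression values per probe set, made with RMA in affy, as the submitters' processing notes name it, with versions and build not given in the sources used here. RMA gives no detection call. The values ran from 2.5 to 14.7 with array medians of 5.43 to 5.45, and arrays correlated at 0.981 to 0.997 over genes. In 59.4% of probe sets, 2 or more arrays share a value. The number of arrays limits the precision.

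Genes were assigned by the platform annotation dated 2016 (34945 probe sets with 1 gene, 932 with several), updated through RefSeq gene IDs (34741 matched). limma 3.58.1 in R 4.3.3 (lmFit, eBayes, two-sided) was run on all 45037 probe sets outside the manufacturer's 64 controls, and on 13644 genes, each by its probe set of highest mean, without means at or under the 25th percentile (log2 4.588). Labels call the arrays biological replicates. The members and lists were chosen with earlier results of these data known. Named genes are the 10 members, the called genes of each pathway list and up to 3 others with the largest moderated t, and the 5 genes most correlated with Nfkbiz. From the marker lists single markers are named, not by 1 fixed rule. Fabp6 and Slc10a2 were added as tissue checks. Alternatives were other normalizations, filters, variance models, the mean of probe sets, a replicate block and each array left out. Figures used matplotlib 3.10.9 in Python 3.11.15.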

Additional observations from a re-analysis of the deposited data

Results flagged for a closer look

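In a group of 4 mice, a mouse was singled out when its gap to the nearest other mouse was, as a share of the group's range, above Dixon's 95% critical value, which chance gives in about 1 of 20 groups. Of 18 member probe sets 1 met it in the penicillin group, and 4 of 26 other named genes, cell type markers not included, did. Nfkbiz 1457404_at stood at 7.10 in penicillin replicate 1 and at 7.36 in each of the other 3 penicillin mice, which share the same deposited value. Tnfsf13b stood at 6.89 in penicillin replicate 1, the nearest other mouse at 7.10. Nfkbie stood at 6.35 in penicillin replicate 1, the nearest at 6.50. Nfkbid stood at 4.82 in penicillin replicate 2, the nearest at 4.69. Psmb9 stood at 9.28 in penicillin replicate 2, the nearest at 8.79.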

How the results depend on the processing

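Of 250 pairs of a member probe set and an alternative, 236 kept the direction and the side of the threshold. In limma, 0 member probe sets were called, and 1, Nfkbiz 1417483_at, was called with renewed quantile normalisation (adjusted p = 0.0412), median centring (0.0412), a trend with robust prior (0.0282), or a filter at the 25th (0.0433) or 50th percentile (0.0391). Leaving out 1 mouse gave 0 to 1 called member probe sets and 0 to 1 called member genes. Over genes, 0 members were called with the mean of probe sets, and 3 with array quality weights, where Bcl3 (-0.73) and Icam1 (-0.45) joined Nfkbiz. That setting called 774 of all genes against 13, and 5 pathway list genes against 0, but over probe sets it called 13 against 17 and 0 members. Leaving out 1 mouse gave 0 to 1 of these. All called genes ranged from 0 to 15 and all called probe sets from 0 to 29 when a mouse was left out, and averaging probe sets called 7. With the replicate block, limma called 0 members and 0 genes in all (Nfkbiz -0.88, adjusted p = 0.491). Same-numbered mice deviated together with correlations of -0.164, 0.003 and -0.416, so the number was not taken as a pairing. The cause of these changes was not tested. Signs turned for small differences: Tnfaip3 1433699_at was at -0.079 with array quality weights, or -0.14 in the gene fit, and -0.060 with the mean of probe sets. Leaving out 1 mouse, Tnfaip3 1433699_at ran from -0.16 to 0.096, Nfkbia 1420089_at from -0.067 to 0.19, Nfkb2 1425902_a_at from -0.056 to 0.30, Relb from -0.065 to 0.43, Rela from -0.063 to 0.036, Birc3 1425223_at from -0.13 to 0.043, Lcn2 from -0.53 to 0.038 and Csf3 from -0.0079 to 0.25.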
